A study of Mus musculus with 32 samples.

Results

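The comparison described here is between S49 (Bcl-2) cells after 48 h and after 24 h of dexamethasone (dex), taken on the dex-treated cells themselves. Its members are the 4 libraries of each of these groups, 8 of the 32 libraries measured. S49 (here S49.1) is a lymphoma line of mouse T cells. The S49 (Neo) cells carry a retrovirus with a G418 resistance gene, and the S49 (Bcl-2) cells carry in addition the Bcl-2 proto-oncogene. Both lines were left without dex (control) or given 250 nM dex for 24 h or 48 h, and poly(A)-enriched RNA was sequenced, with 4 libraries in each of 8 groups. The sources do not say whether a line is 1 clone, nor whether the 4 replicates are separate cultures. The p-values therefore measure the spread between these samples only. The values are log2 values normalized by the authors, some of them below 0, and the read depth behind a value is unknown. What was done before the log is not stated, so a difference of 1 is a doubling of the deposited quantity, and folds of low genes are uncertain.

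Dex binds the glucocorticoid receptor, a hormone-activated transcription factor that is encoded by Nr3c1. In immature T cells and T-cell lymphomas, glucocorticoids stop the cell cycle and start apoptosis through the Bcl-2 protein family, in which BH3-only proteins free Bax and Bak to open the mitochondrial outer membrane. Bcl-2 holds these proteins in check, so that cells with extra Bcl-2 can be followed for longer under the hormone. At 24 h the cells compared here had already been exposed to dex for a day. Controls and S49 (Neo) cells over the same day are therefore given beside it. In the study, S49 (Neo) cells under dex lost viability and had degraded DNA, while S49 (Bcl-2) cells kept their membrane integrity. The share of dying cells in the S49 (Neo) libraries is unknown. Its part in the differences between lines was not tested.

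Bcl2 itself lay between 10.48 and 11.45 in all 16 libraries of the S49 (Bcl-2) line and between 7.70 and 8.62 in those of the S49 (Neo) line. The species of the introduced gene is not stated, and the study detected its protein with an antibody against human Bcl-2. The values come from reads aligned to the mouse genome, so how far they measure the introduced gene is unknown. Of 8 T cell markers, 7 were expressed above the minimum for testing, Cd3d and Lck among them, and Cd5 was not. Of the markers of other cells, 6 of 11 B cell markers, 10 of 14 macrophage and granulocyte markers and 8 of 13 stromal, endothelial and epithelial markers were at or below 0 in all 8 libraries. Not all others were low. Itgam, an integrin chain of myeloid cells, lay at 9.32 to 10.05 and Pecam1, an adhesion molecule of endothelium and leukocytes, at 8.48 to 9.37, while the T cell marker Cd2 had a mean of 7.72 at 24 h and 8.86 at 48 h. The summed level of the T cell markers ran from 16.15 to 16.47 at 24 h of dex and from 15.85 to 15.98 at 48 h. For the B cell markers these ranges were 6.67 to 7.22 and 7.33 to 7.73, for the macrophage and granulocyte markers 9.51 to 9.65 and 9.83 to 10.11, and for the stromal, endothelial and epithelial markers 9.15 to 9.46 and 8.59 to 8.94. The members did not move together: Itgam had means of 9.39 and 9.85 and Lyz2, the lysozyme of macrophages, of 6.23 and 5.04. The part of these shifts in the results was not tested.

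One of the 8 libraries stood apart. In 24 h dex replicate 3, differences from the mean of the other 3 libraries of the group had a standard deviation of 0.77 across genes, against 0.26 to 0.31 for each of those 3 and 0.12 to 0.14 at 48 h of dex. Each of those 3 was compared with a mean that includes replicate 3, which widens its differences. The differences of replicate 3 followed the GC content of the transcripts, with a Spearman's rho of 0.80 across 11349 genes. Transcripts with under 40% GC were lower in this library by a median of -1.66, and those with over 60% GC were higher by 0.43. AT-rich transcripts therefore had a low mean and a wide spread at 24 h, and GC-rich ones a high mean. The change in dex in S49 (Bcl-2) cells was computed with all libraries and without this library. So were its differences from the changes in control and in S49 (Neo) cells. For the change in dex, "rose" and "fell" are used for genes that passed both times. Changes in the controls and in S49 (Neo) cells are given with all libraries unless stated, and there the words rest on that computation alone. This library enters the spread shared by all groups, which those counts use.

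**Figure D1:**
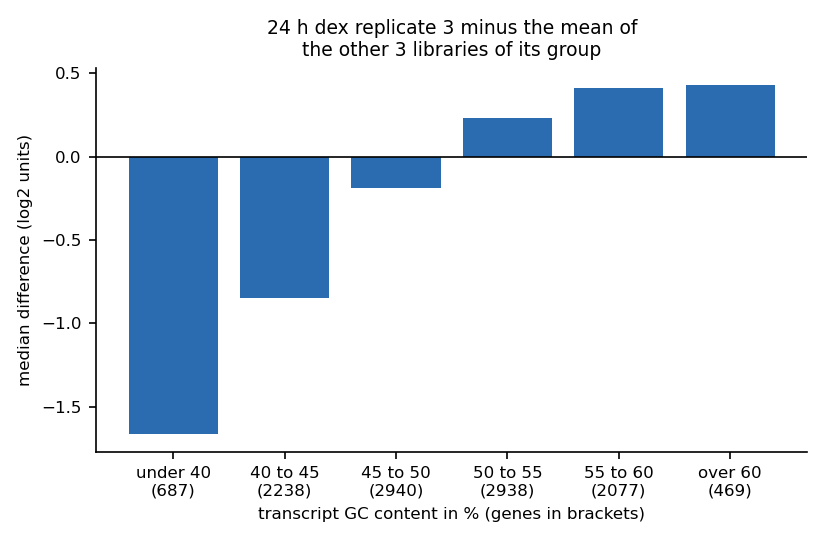
Median difference in log2 units between 24 h dex replicate 3 and the mean of the other 3 libraries of its group (y axis), for genes in 6 classes of transcript GC content in % (x axis, number of genes in brackets). The median runs from -1.66 in the most AT-rich class to 0.43 in the most GC-rich class.

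Changes between 24 h and 48 h of dex were spread over a large part of the transcriptome and most were small. Of 11592 genes with a mean log2 value of at least 3.46, 2284 (19.7%) were higher and 2456 (21.2%) lower at 48 h with all libraries, at a Benjamini-Hochberg adjusted p under 0.05 in limma. A gene that met this threshold is said to have passed. Without 24 h dex replicate 3, these numbers were 3259 (28.1%) higher and 3610 (31.1%) lower of 11594. The genes that passed both times numbered 2214 higher (19.1%) and 2384 lower (20.6%), and none (0) passed in opposite directions. Omitting the library lost 142 genes and added 2268. The median size of the change was 0.46 among genes that rose and 0.42 among those that fell. A change of over 1 log2 unit was seen in 181 genes that rose and 128 that fell. The 4 libraries at 48 h and the 4 at 24 h did not overlap in 4660 genes (40.2%). In bulk RNA, fewer cells of a type and less RNA per cell cannot be told apart.

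S49 (Bcl-2) cells without dex also changed over the same day, with 2483 genes (21.4%) higher and 2084 (18.0%) lower at 48 h. All 16 S49 (Bcl-2) libraries share 1 estimate of the spread, and without 24 h dex replicate 3 these counts were 3905 and 3669. Of the 2214 genes that rose in dex, 852 (38.5%) were also higher in the controls, which is 34.3% of the genes higher there, and 132 (5.96%) were lower. Of the 2384 that fell in dex, 920 (38.6%) were also lower in the controls and 300 (12.6%) higher. The test of the difference, the change in dex minus the change in control, found 1281 genes (11.1%) positive and 1892 (16.3%) negative, of which 1276 (11.0%) and 1888 (16.3%) passed both times. Without 24 h dex replicate 3 alone it found 2657 and 3143. S49 (Neo) cells had 1214 genes (10.5%) higher and 957 (8.28%) lower at 48 h than at 24 h of dex, of 11562 tested over both lines. Of the genes that rose in S49 (Bcl-2) cells, 815 (36.8%) also did so in S49 (Neo) cells, or 67.3% of the 1211 genes higher there that were tested in both, and 674 (28.3%) of those that fell were lower in S49 (Neo) cells, or 70.6% of 954. The change in S49 (Bcl-2) cells minus that in S49 (Neo) cells was positive in 801 genes (6.93%) and negative in 1410 (12.2%), with 749 (6.48%) and 1364 (11.8%) passing both times and 1308 and 2284 without that library. Genes are not independent replicates, and over them the change in dex had a Pearson's r of 0.26 with the change in the controls and of 0.58 with the change in S49 (Neo) cells. These comparisons share no library.

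The largest rise was in Angptl7 (chromosome 4 from 148495183 to 148500460 on mm10), which codes for a secreted protein of the angiopoietin-like family. Its normalized log2 values were 8.44, 8.36, 9.03 and 8.77 at 24 h of dex, in the order of the replicates, and 12.80, 12.72, 12.93 and 12.85 at 48 h. The groups were far apart, and controls lay at 3.64 to 4.25 at 24 h and 3.99 to 4.18 at 48 h. The difference was 4.17 (standard error 0.14, adjusted p = 3.31e-10 from limma), an 18.1-fold higher value, and 4.30 without 24 h dex replicate 3. In S49 (Neo) cells it rose from a mean of 5.06 to 6.87, and the rise was larger in S49 (Bcl-2) cells by 2.37 (adjusted p = 1.58e-06 from limma).

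The 12 largest rises and falls were taken from genes with a mean of at least 6.66 over the 16 libraries and no overlap between times. Among the other 11 rises were genes of transcription and chromatin. Nfic, a nuclear factor I transcription factor, was at 8.07, 7.97, 8.24 and 8.04 at 24 h and at 10.21, 9.94, 10.08 and 9.99 at 48 h of dex (1.98, standard error 0.12, adjusted p = 3.46e-08 from limma). It also rose in the controls, by 1.04, and the rise in dex was larger by 0.93 (adjusted p = 0.000994 from limma). Sohlh1, a helix-loop-helix factor best known from germ cells, lay at 8.76 to 9.40 at 24 h and at 10.93 to 11.22 at 48 h of dex, and at 3.62 to 3.80 in 48 h controls. Smarca1, an ATPase of chromatin remodelling complexes, and Crebrf, a regulator of the transcription factor Creb3, are AT-rich and were lowest in the skewed library. Smarca1 was at 8.63, 8.57, 5.96 and 8.80 at 24 h and 10.53 to 10.59 at 48 h, and its difference of 2.57 was 1.89 without replicate 3. For Crebrf the difference was 1.65 with and 1.09 without that library.

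The remaining large rises were in genes of the cell surface, of scaffolds and of metabolism. Reps2, an endocytic adaptor, was at 9.23, 9.13, 7.16 and 9.20 at 24 h and at 11.64, 11.47, 11.82 and 11.61 at 48 h. Its difference of 2.95 was 2.45 without replicate 3 (adjusted p = 2.98e-10 from limma), and the controls lay at 4.01 to 4.59 at 24 h and 4.18 to 4.38 at 48 h. Grasp, a scaffold of membrane receptors, was at 7.24, 7.21, 7.75 and 7.66 and 9.91, 9.63, 9.72 and 9.65, a difference of 2.27 (standard error 0.13), while the controls changed by -0.36. At 24 h its dex-treated libraries (7.21 to 7.75) overlapped the controls (7.29 to 7.48), and at 48 h they stood clear of them (6.91 to 7.34). Notch4, a Notch receptor, rose by 1.75, Tspear, a secreted repeat protein, by 2.01, and Adam11, a catalytically inactive member of the ADAM family, by 2.04. Fmo1, a flavin-containing monooxygenase, and Fn3k, which phosphorylates sugars attached to proteins, rose by 1.83 and 1.79. All 12 were also higher at 48 h than at 24 h in the means of the S49 (Neo) libraries, where 11 passed the test and Crebrf did not (0.49, adjusted p = 0.244 from limma).

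**Figure D2:**
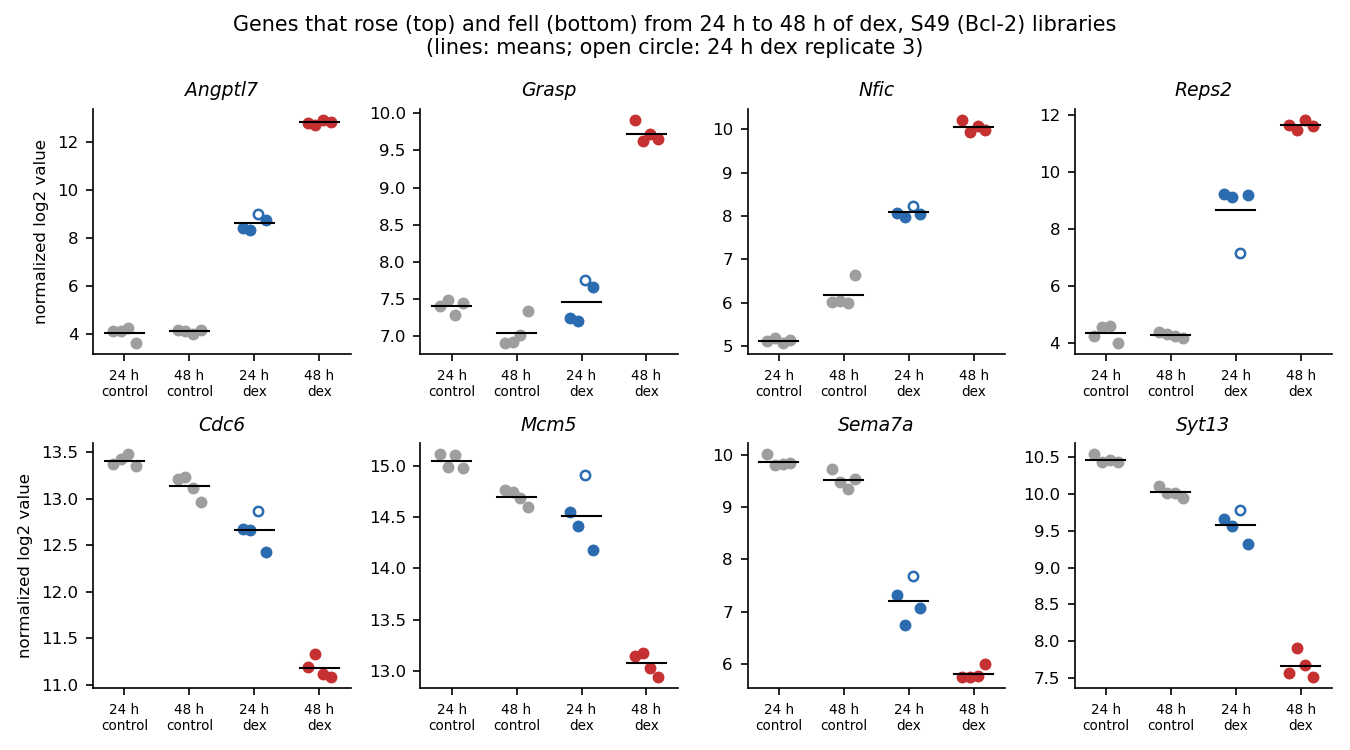
Normalized log2 value (y axis) of 8 genes in each S49 (Bcl-2) library, by time and treatment (x axis); lines are group means and the open circle is 24 h dex replicate 3. Angptl7, Grasp, Nfic and Reps2 are highest at 48 h of dex, and Cdc6, Mcm5, Sema7a and Syt13 are lowest there, with no overlap with the 24 h dex libraries.

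The 12 largest falls held 4 genes of DNA replication, Cdc6, Mcm5, Mcm10 and Gins2, which are described with their group. The largest was in Syt13 (chromosome 2 from 92915098 to 92956058 on mm10), a member of the synaptotagmin family of membrane trafficking proteins, at 9.66, 9.56, 9.78 and 9.32 at 24 h and 7.56, 7.90, 7.68 and 7.51 at 48 h (-1.92, standard error 0.10, adjusted p = 8.35e-09 from limma). Sema7a, a membrane-anchored semaphorin, and Sh2d2a, an adaptor of T-cell signaling, fell (changes of -1.39 and -1.47), and Fam65b, an inhibitor of the GTPase RhoA, fell by 1.43. Cym, the gene of the protease chymosin, was at 7.75, 7.45, 7.10 and 7.96 and 5.69, 5.79, 5.60 and 6.73. Its 48 h replicate 4 lay above the other 3 but below every 24 h library. Dsp, which codes for the junction protein desmoplakin, fell by 1.51 in S49 (Bcl-2) and had a change of -0.29 in S49 (Neo) cells (difference -1.22, adjusted p = 4.90e-08 from limma). Dsp was above control at both times, at 10.30, 10.29, 10.31 and 10.10 at 24 h of dex against 5.60 to 5.70 in control and at 8.76, 8.83, 8.69 and 8.66 at 48 h against 5.85 to 6.30. Hvcn1, a voltage-gated proton channel, and Ggct, an enzyme of glutathione turnover, fell (changes of -1.36 and -1.35).

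Genes of DNA replication fell nearly throughout. Of 54 measured, 46 fell and 0 rose, against 20.6% of all genes falling, with a median change of -0.91, against a median of 0.04 over all genes tested. Without 24 h dex replicate 3, 52 of them passed, with a median of -0.94 and a range from -1.41 to 0.05. In the controls 14 were lower and 0 higher over the same day (median -0.17), and in S49 (Neo) cells 27 were lower (median -0.22). The change in dex was the more negative in 43 genes by the test against control and in 45 by the test against S49 (Neo) cells. The mean level of the group was 12.67 to 12.72 in 24 h controls, 12.04 to 12.29 at 24 h of dex and 11.28 to 11.44 at 48 h of dex.

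Members of several steps of replication were among those that fell. Cdc6, which loads the MCM helicase onto origins (chromosome 11 from 98907801 to 98923940 on mm10), was at 12.68, 12.67, 12.87 and 12.43 at 24 h and 11.19, 11.33, 11.11 and 11.08 at 48 h. The difference was -1.48 (standard error 0.09, adjusted p = 2.40e-08 from limma), or 0.36 of the 24 h level on the linear scale. Mcm5 and Mcm6, subunits of that helicase, changed by -1.44 and -1.09, with 24 h values of 14.77 to 14.98 and 48 h values of 13.71 to 13.86 for Mcm6. Gins2, part of the active helicase, changed by -1.41 and by -1.21 without replicate 3. Mcm10, needed to fire origins, lay at 12.08 to 12.47 at 24 h and 10.68 to 10.97 at 48 h. Pole, the leading-strand polymerase, was at 12.13, 12.19, 12.14 and 12.09 at 24 h and 11.07, 11.07, 11.09 and 10.97 at 48 h (-1.09, standard error 0.04). Prim2, a primase subunit, and Clspn, an adaptor of the replication checkpoint, changed by -1.08 and -1.24. Pola1, the catalytic subunit of the priming polymerase, was low in the skewed library. It was at 12.24, 12.21, 10.54 and 12.03 at 24 h and 11.22, 11.09, 11.17 and 11.14 at 48 h, and passed without replicate 3 (-1.01, adjusted p = 2.39e-10 from limma) but not with it (-0.60, adjusted p = 0.0823).

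Promoters of replication genes often hold binding sites of E2F, the factor family that the retinoblastoma protein restrains before S phase. Windows from 250 bases before to 50 bases after the annotated start, from RefSeq on GRCm38.p6, were found for 44 of the 54 genes. The letters TTTCCCGC or TTTGGCGC, on either strand, were in 13 of their 53 windows (24.5%), against 1.56% of all 32851 mouse windows and 3.08% of the 11304 windows of the genes tested. The windows of 5 genes that fell are shown for this motif, in capitals, and all stretches are written 5′ to 3′ along the gene. The whole window of Cdc6 is chr11:98907901-98908200, plus strand. For the others the stretch around the first match is given, after the position of the whole window, and each motif was searched on its own, so that matches of different motifs can overlap.
Cdc6: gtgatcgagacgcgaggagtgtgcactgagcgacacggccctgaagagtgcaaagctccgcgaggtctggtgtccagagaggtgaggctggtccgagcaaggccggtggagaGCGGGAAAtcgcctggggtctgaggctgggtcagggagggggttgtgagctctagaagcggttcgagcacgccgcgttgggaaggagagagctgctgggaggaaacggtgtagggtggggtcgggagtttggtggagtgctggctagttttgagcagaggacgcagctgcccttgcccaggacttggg
Mcm5 (chr8:75109259-75109558, plus strand): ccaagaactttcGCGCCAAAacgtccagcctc
Mcm6 (chr1:128359656-128359955, minus strand): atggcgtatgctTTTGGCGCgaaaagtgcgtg
Mcm7 (chr5:138171834-138172133, minus strand): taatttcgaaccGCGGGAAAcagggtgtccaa
Rfc3 (chr5:151651159-151651458, minus strand): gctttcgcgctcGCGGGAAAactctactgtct

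Genes of mitosis, which act hours after S phase, fell as well. Of 59 measured, 45 fell and 0 rose (median -0.85), and without 24 h dex replicate 3 all 59 passed (median -0.91, range -1.16 to -0.23). The controls did not share this: 7 were higher and 1 lower, with a median change of 0.08. The change in dex was the more negative in 42 genes against control and in 41 against S49 (Neo) cells, where 10 were lower (median -0.13). Ccna2, cyclin A2, was at 14.21, 14.13, 13.51 and 13.96 at 24 h and 13.07, 13.05, 12.95 and 12.79 at 48 h (-0.99, standard error 0.12, adjusted p = 1.33e-05 from limma). Ncapd2, a condensin subunit, Espl1, the protease that parts sister chromatids, and Kif14, a mitotic kinesin, fell (changes of -1.20, -1.25 and -0.97). Top2a, which untangles chromosomes, and Kif11, the motor that separates spindle poles, fell (changes of -0.80 and -0.72), with changes of -1.01 and -1.06 without the skewed library, in which both were lowest.

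The cell cycle homology region TTTGAA, a motif of genes that peak in G2 and M phase, was in 36 of 54 promoter windows of the mitosis genes (66.7%, from 48 genes). It was in 17.9% of all windows and in 12.1% of those of the genes tested, while CCAAT was in 72.2% of the mitosis windows and 37.4% of all. The motif, on either strand, is in capitals in the whole window of Plk1, the mitotic polo-like kinase (chr7:122159185-122159484, plus strand), and in stretches of other genes that fell.
Plk1: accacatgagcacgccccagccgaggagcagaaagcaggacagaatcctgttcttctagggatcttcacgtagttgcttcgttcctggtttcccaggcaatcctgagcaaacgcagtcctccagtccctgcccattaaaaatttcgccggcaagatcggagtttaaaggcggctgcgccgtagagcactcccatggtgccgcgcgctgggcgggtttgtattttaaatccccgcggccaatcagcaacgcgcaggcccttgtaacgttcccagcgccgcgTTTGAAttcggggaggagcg
Cdk1 (chr10:69352863-69353162, minus strand): ctgattggctccTTTGAAcgtctacgtgca
Espl1 (chr15:102296043-102296342, plus strand): tcactagggataTTTGAAaggaggtgctgg
Cdc20 (chr4:118437294-118437593, minus strand): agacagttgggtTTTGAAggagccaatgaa
Aurka (chr2:172370521-172370820, minus strand): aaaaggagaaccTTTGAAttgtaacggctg

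**Figure D3:**
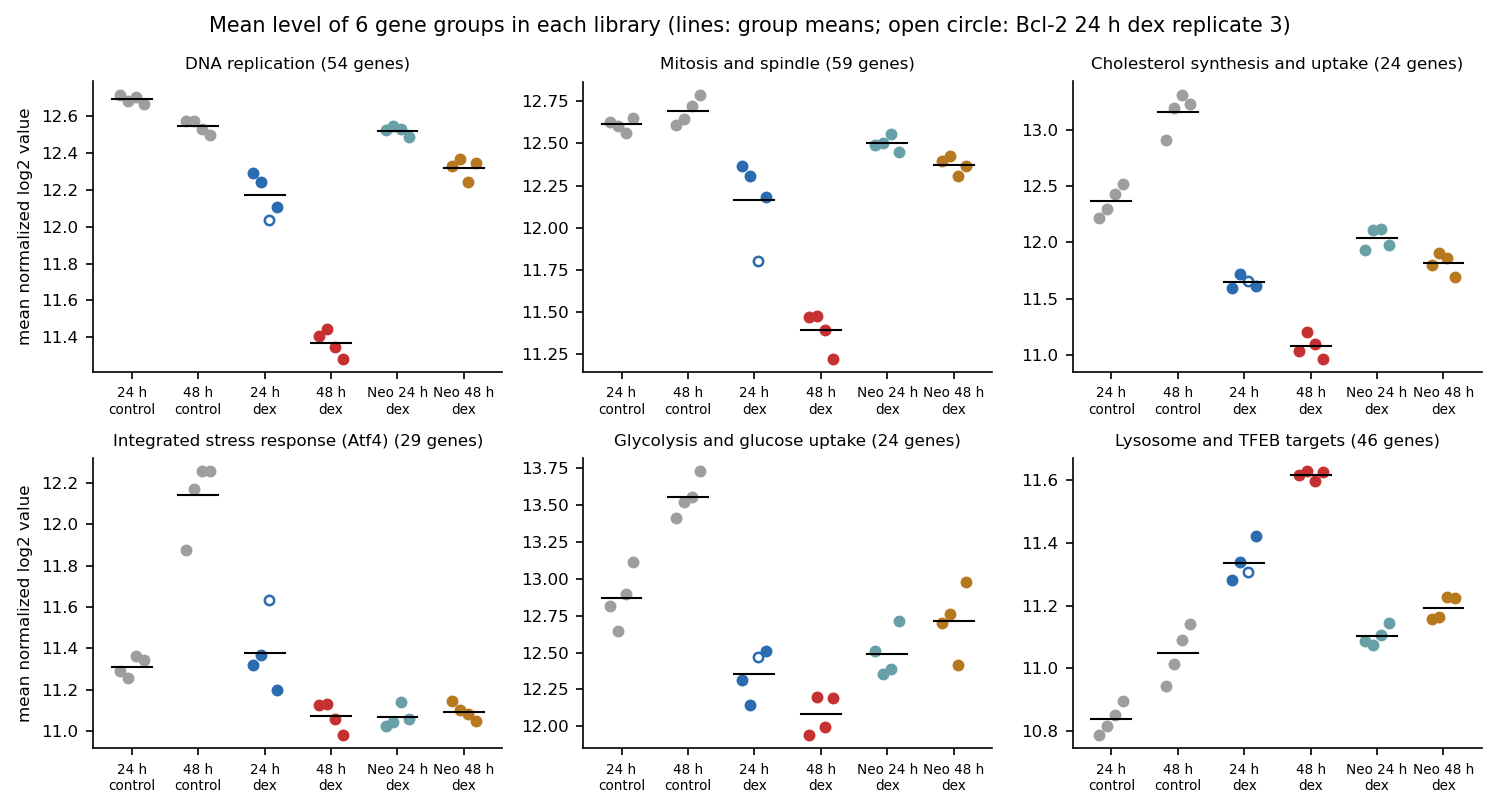
Mean normalized log2 value over the genes of 6 groups (y axis) in each library of 4 S49 (Bcl-2) and 2 S49 (Neo) groups (x axis); lines are group means and the open circle is Bcl-2 24 h dex replicate 3. Replication and mitosis genes are lowest at 48 h of dex in S49 (Bcl-2) cells, while cholesterol, stress response and glycolysis genes part from the 48 h controls, which are the highest.

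Of 23 cyclins, kinases and inhibitors of G1 phase, 12 fell and 2 rose. Ccne1, cyclin E1, fell by 1.22 (standard error 0.11, adjusted p = 1.32e-06 from limma), and E2f1 and E2f8, an activating and a repressing E2F factor, fell (changes of -0.80 and -0.94). Cdkn1a, the inhibitor p21, was at 7.12, 6.79, 6.90 and 6.84 at 24 h and 8.21, 7.96, 7.92 and 8.10 at 48 h, a rise of 1.13 (standard error 0.18, adjusted p = 0.000177 from limma). It changed by 0.41 in the controls (adjusted p = 0.0860) and by 0.20 in S49 (Neo) cells. Cdkn2c, the inhibitor p18, fell by 0.67. Of 34 genes of homologous recombination and Fanconi repair, 20 fell and 1 rose (median -0.55, and -0.71 without the skewed library), among them Exo1, an exonuclease (-1.22), and Fancd2 (-1.0). Chek1, the checkpoint kinase, was at 11.77 to 11.83 in 3 libraries and at 9.77 in replicate 3 at 24 h, and at 10.74 to 10.81 at 48 h and it passed only without that library (-1.02, adjusted p = 4.82e-11 from limma).

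Nucleotide and one-carbon synthesis genes fell in 25 of 34 cases (median -0.55), with 1 rise. Here the controls moved the same way, 15 lower and 3 higher (median -0.37), and 12 passed the test against control. Rrm2 and Rrm1, the subunits of ribonucleotide reductase, fell (changes of -1.33 and -0.82). For Rrm2 the values were 14.54, 14.35, 14.10 and 14.37 at 24 h and 13.07, 13.13, 12.88 and 12.99 at 48 h, while the controls changed by -0.03. Tk1, thymidine kinase, fell by 1.25, and Shmt2, which feeds one-carbon units from serine, fell by 1.02. The rise was in Rrm2b, a reductase subunit that p53 induces (0.78, and 0.35 without replicate 3). Of 31 replication-dependent histone genes, 6 fell and 2 rose, against 20.6% and 19.1% of all genes. Their transcripts are mostly not polyadenylated and their sequences are near copies of each other, so these values are uncertain.

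Genes of cholesterol synthesis and uptake moved in opposite directions in dex and in control. Of 24 measured, 19 fell and 0 rose in dex (median -0.53), while in the controls 22 were higher and 0 lower at 48 h (median 0.88). The difference passed in 23 of 24 genes (median -1.48). The mean level of the group was 11.60 to 11.72 at 24 h and 10.97 to 11.21 at 48 h of dex, with no overlap, and 12.22 to 12.52 and 12.91 to 13.31 in the controls. Nsdhl, an enzyme of the late pathway, was at 11.69, 11.67, 11.17 and 11.56 at 24 h and 10.75, 10.91, 10.70 and 10.73 at 48 h of dex (-0.75, standard error 0.11, adjusted p = 0.000119 from limma), and Stard4, a cholesterol carrier, fell by 0.46. In the controls Nsdhl and Stard4 rose by 0.76 and 0.89. S49 (Neo) cells had 7 of the genes lower at 48 h (median -0.25). By the test between lines the change was the more negative in S49 (Bcl-2) cells in 9, or 14 without replicate 3.

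Sterol genes are driven by SREBP, which acts with the CCAAT-binding factor NF-Y. CCAAT was in 16 of 20 promoter windows of the group (80.0%, from 17 genes), against 37.4% of all windows and 38.9% of those of the genes tested. The sterol response element TCACNCCAC was in 1 of the 20 (5.0%), against 1.24% of all. CCAAT, on either strand, is in capitals in the windows below of Nsdhl and Hmgcs1, the cytosolic HMG-CoA synthase.
Nsdhl (chrX:72918271-72918570, plus strand): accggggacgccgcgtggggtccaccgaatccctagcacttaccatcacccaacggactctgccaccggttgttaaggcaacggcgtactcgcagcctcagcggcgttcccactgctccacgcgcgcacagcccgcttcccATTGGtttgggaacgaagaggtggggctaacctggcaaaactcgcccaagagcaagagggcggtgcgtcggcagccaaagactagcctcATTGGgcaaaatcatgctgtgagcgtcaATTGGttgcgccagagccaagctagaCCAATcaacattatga
Hmgcs1 (chr13:119690101-119690400, plus strand): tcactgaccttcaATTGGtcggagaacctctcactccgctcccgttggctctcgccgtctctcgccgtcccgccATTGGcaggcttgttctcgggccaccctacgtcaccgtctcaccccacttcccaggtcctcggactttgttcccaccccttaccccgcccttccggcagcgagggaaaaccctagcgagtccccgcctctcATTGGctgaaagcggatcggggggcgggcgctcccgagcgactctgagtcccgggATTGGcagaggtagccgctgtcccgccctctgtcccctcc

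Fatty acid synthesis genes followed in part, with 5 of 13 lower and 0 higher in dex, and 9 higher and 0 lower in control. Of all genes 20.6% fell and 19.1% rose in dex, and 21.4% were higher and 18.0% lower in control. Fasn, fatty acid synthase, fell by 0.51 and Acly, which makes cytosolic acetyl-CoA, fell by 0.31. Srebf1, which codes for the factor SREBP-1, fell by 0.38 in dex and rose by 0.52 in control.

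Genes of amino acid supply and of protein folding in the endoplasmic reticulum formed a further set that fell. Of 29 targets of the integrated stress response, which runs through the factor Atf4, 14 fell and 0 rose in dex (median -0.36, and -0.22 without replicate 3), and 23 were higher and 0 lower in control (median 0.61). The difference between dex and control passed in 26. Psph and Phgdh, enzymes of serine synthesis, fell (changes of -0.87 and -0.89), Mthfd2, a mitochondrial folate enzyme, fell by 0.79, and Slc7a1, an arginine carrier, fell by 0.56. Asns, asparagine synthetase, was at 13.42, 13.59, 13.27 and 13.40 at 24 h and 12.93, 13.04, 12.96 and 12.90 at 48 h (-0.47, standard error 0.07, adjusted p = 6.71e-05 from limma), against a rise of 0.47 in control. Sesn2, a stress-induced regulator of mTORC1, had a change of 0.22 in dex (adjusted p = 0.125 from limma) and 0.32 without replicate 3. Phgdh, Psph, Mthfd2 and Shmt2 also serve one-carbon synthesis, and Shmt2 and Mthfd2 are in both lists.

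Aminoacyl-tRNA synthetases, which charge tRNAs, fell in 17 of 22 cases and rose in 0 (median -0.44), while in control 6 were higher and 8 lower. By the test between lines the change was the more negative in S49 (Bcl-2) cells in 14. Gars, for glycine, was at 14.11, 14.18, 14.13 and 14.00 at 24 h and 13.52, 13.56, 13.44 and 13.39 at 48 h (-0.62, standard error 0.05, adjusted p = 6.28e-07 from limma). Mars, Lars and Iars, for methionine, leucine and isoleucine, fell (changes of -0.59, -0.42 and -0.41). The amino acid response element TGATGNAA, which Atf4 binds, was in 5 of 15 windows of the synthetases (33.3%, from 14 genes) and in 7 of 30 windows of the stress response targets (23.3%, from 25 genes). It was in 3.97% of all windows and in 2.19% of those of the genes tested. The stretches below show it in capitals, on either strand.
Gars (chr6:55037751-55038050, plus strand): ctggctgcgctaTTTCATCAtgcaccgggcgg
Tars (chr15:11399609-11399908, minus strand): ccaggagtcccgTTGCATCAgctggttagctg
Asns (chr6:7693160-7693459, minus strand): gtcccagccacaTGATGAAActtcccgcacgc

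Of 30 genes of endoplasmic reticulum folding, 20 fell and 0 rose (median -0.43, and -0.54 without the skewed library). In control 7 were higher and 7 lower (median -0.16), and in S49 (Neo) cells 2 were higher and 1 lower (median -0.05). The test between lines passed in 20 genes, and in all of them the change was the more negative in S49 (Bcl-2) cells. Hspa5, the chaperone BiP, was at 16.43, 16.47, 15.81 and 16.33 at 24 h and 15.74, 15.73, 15.68 and 15.64 at 48 h (-0.56, standard error 0.11, adjusted p = 0.00107 from limma). Manf, a folding factor of the same compartment, fell by 0.83, Sec61b, a subunit of the protein entry channel, fell by 0.69, and Ero1lb, an oxidase that forms disulfide bonds, fell by 0.70. The mean level of the group was above control at 24 h of dex (13.37 to 13.62 against 13.13 to 13.25) and below it at 48 h (13.03 to 13.12 against 13.17 to 13.25).

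**Figure D4:**
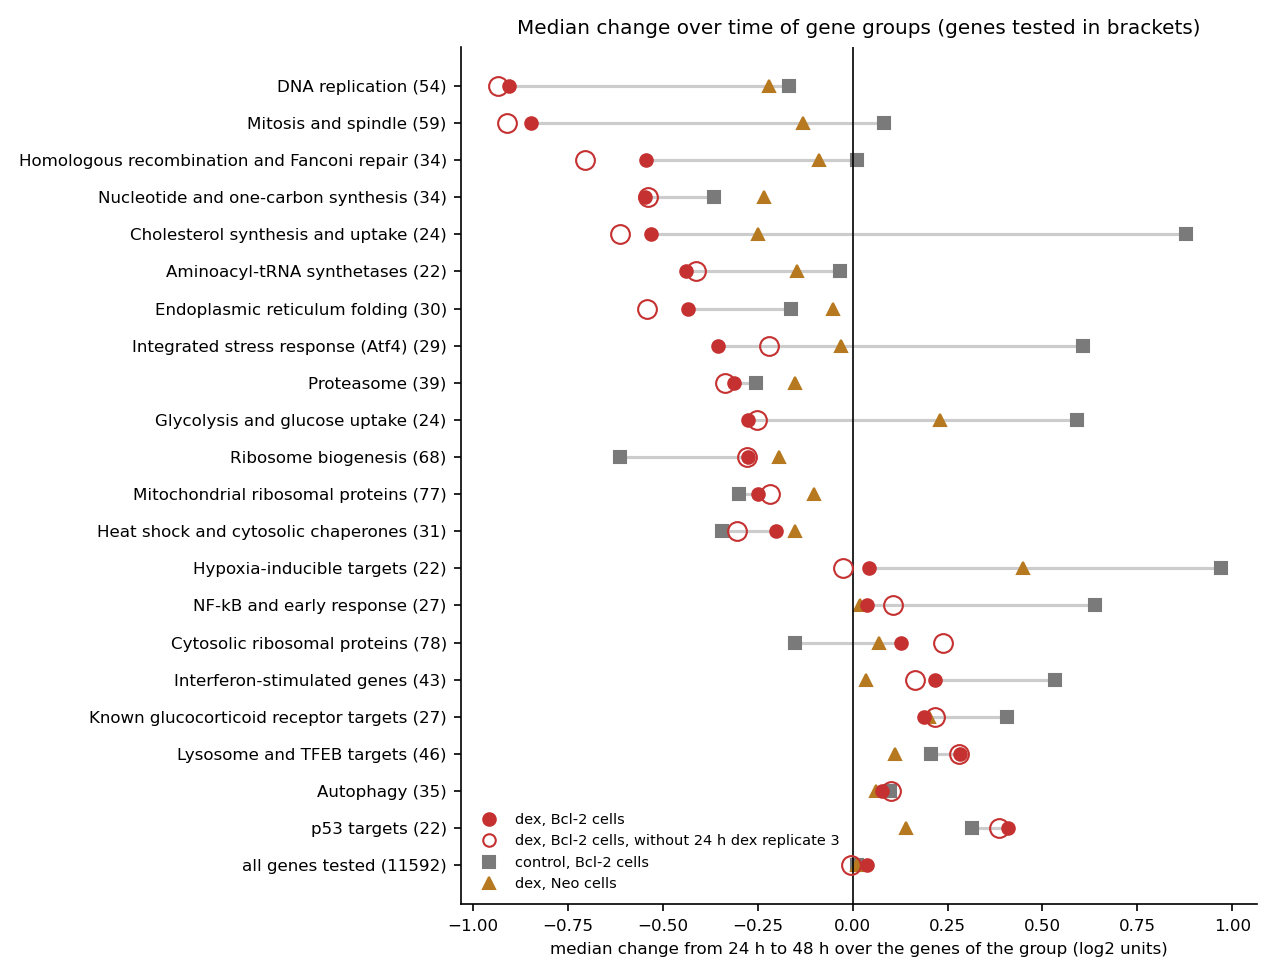
Median change from 24 h to 48 h in log2 units (x axis) over the genes of 21 groups and over all genes tested (y axis, number of genes in brackets), for S49 (Bcl-2) cells in dex with (filled circle) and without (open circle) 24 h dex replicate 3, S49 (Bcl-2) controls (square) and S49 (Neo) cells in dex (triangle). In dex the medians of replication and mitosis lie at -0.91 and -0.85, and the gap between dex and control is widest for cholesterol, at -0.53 and 0.88.

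The machinery of protein synthesis changed unevenly. Ribosome biogenesis genes, which process ribosomal RNA and assemble the subunits, fell in 36 of 68 cases and rose in 0 (median -0.28), and 61 were lower in the controls (median -0.61). The test of the difference was positive in 22 genes and negative in 0. Without replicate 3, 56 were lower in dex, and the test of the difference was positive in 49. Nolc1, a nucleolar chaperone, changed by -0.80 in dex and by -0.80 in control. Cytosolic ribosomal protein genes rose in 24 of 78 cases and fell in 2 (median 0.13). Without 24 h dex replicate 3, in which their mean was the highest of the group, 67 were higher (median 0.24). In control 0 were higher and 13 lower (median -0.15). The test of the difference was positive in 28 of these genes and negative in 0, and without replicate 3 it was positive in 75 and negative in 0. Between lines 7 were positive and 0 negative, and without replicate 3 51 were positive and 0 negative. Rpl17 was at 15.35, 15.43, 15.26 and 15.37 at 24 h and 15.76, 15.81, 15.82 and 15.84 at 48 h (0.46, standard error 0.05, adjusted p = 3.61e-06 from limma). The members that fell were Rpl34 and Rpl30, and ribosomal protein genes have many near-identical pseudogenes, so single members are uncertain.

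Translation factors rose in 7 and fell in 15 of 44 cases (median -0.06), against 19.1% and 20.6% of all genes, and 27 were lower without replicate 3 (median -0.21). Eef2, the translocase of elongation, rose by 0.45 and Eif3f, a subunit of the initiation factor eIF3, by 0.37, while Eif3b, another eIF3 subunit, fell by 0.57. Mitochondrial ribosomal protein genes fell in 47 of 77 cases and rose in 1 (median -0.25), close to the controls (51 lower and 0 higher, median -0.30). Proteasome genes fell in 27 of 39 (median -0.31; 23 lower in control), with Psmd13 at -0.58 and Psmd2 at -0.51, and the member that rose was Psma4 (0.71, and 0.42 without replicate 3). Of 31 heat shock and cytosolic chaperone genes 13 fell and 0 rose (median -0.20). Without replicate 3, 25 were lower (median -0.31), and 18 were lower in control. Stip1 and Fkbp4, cochaperones of the Hsp90 machine that holds steroid receptors, fell (changes of -0.65 and -0.65).

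Glycolysis genes again parted from the controls. In dex 9 of 24 fell and 2 rose (median -0.28), in control 18 were higher and 1 lower (median 0.59), and the difference was negative in 18 and positive in 1. S49 (Neo) cells in dex had 6 higher and 2 lower (median 0.23), and the test between lines was negative in 12. Pkm, pyruvate kinase, was at 16.30, 16.04, 16.69 and 16.42 at 24 h and 15.49, 15.77, 15.49 and 15.69 at 48 h of dex (-0.75, standard error 0.12, adjusted p = 0.000270 from limma), against a rise of 0.47 in control. Gapdh and Pgam1, enzymes of the lower pathway, fell (changes of -0.67 and -0.55), and rose by 0.49 and 0.37 in control. The member that rose most was Slc16a1, a lactate carrier, by 0.45, while Slc2a1, the glucose carrier GLUT1, fell by 0.73 and rose by 1.23 in control. Its 48 h values of 10.45, 11.08, 10.46 and 11.04 ended just below the lowest of the 24 h values (11.54, 11.09, 11.88 and 11.45). Hypoxia-inducible genes rose in 3 and fell in 2 of 22 cases in dex (median 0.04), against 19.1% and 20.6% of all genes. They were higher in 19 and lower in 0 in control (median 0.97).

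Mitochondrial energy genes fell by small amounts. Of 20 genes of the TCA cycle 11 fell and 1 rose, of 36 of complex I 18 fell and 2 rose, and of 39 of complexes II to V 22 fell and 2 rose, with medians of -0.19, -0.23 and -0.26. Of all genes 20.6% fell and 19.1% rose. In control these lists had 8, 12 and 21 lower and medians of -0.17, -0.21 and -0.21. Without 24 h dex replicate 3 the medians in dex were -0.22, -0.18 and -0.18, with 15, 23 and 29 genes lower. The test against control was positive in 2, 2 and 2 genes and negative in 3, 1 and 0 with all libraries. Of all genes it was positive in 11.1% and negative in 16.3% with all libraries. Without replicate 3 the test was positive in 3, 7 and 6 genes of these lists and negative in 5, 3 and 1. Mdh1, cytosolic malate dehydrogenase, fell by 0.55, Atp5b, an ATP synthase subunit, fell by 0.39, and Ndufv1, a complex I subunit, fell by 0.52. Ndufs4, also of complex I, rose by 0.65 (0.36 without replicate 3). Antioxidant genes fell in 14 and rose in 3 of 30 cases, against 20.6% and 19.1% of all genes. Nqo1, a quinone reductase, was at 11.59, 11.61, 11.46 and 11.32 at 24 h and 10.76, 10.60, 10.65 and 10.32 at 48 h (-0.91, standard error 0.10, adjusted p = 4.70e-06 from limma). Txnrd2 and Txn1 of the thioredoxin system fell (changes of -0.75 and -0.59), Cat, catalase, fell by 0.47, and Nfe2l2, the gene of the factor Nrf2, rose by 0.34. The change in dex was below that in control in 12 of the 30 antioxidant genes and above it in 3, against 16.3% and 11.1% of all genes.

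Of 37 genes of potassium, sodium, chloride and calcium transport 8 rose and 6 fell, shares near those of all genes (19.1% and 20.6%), and 10 were higher and 12 lower without replicate 3. Kcnip3, a calcium-binding partner of potassium channels, was at 9.61, 9.41, 10.11 and 9.19 at 24 h and 10.64, 10.49, 10.43 and 10.40 at 48 h (0.91, standard error 0.17, adjusted p = 0.000565 from limma), and rose by 1.65 in S49 (Neo) cells. Among calcium handling genes were Atp2a3, a calcium pump, Orai2 and Orai3, subunits of store-operated channels, and Itpr1, a calcium release channel, which rose by 0.48, 0.49, 0.38 and 0.34. Kcnab2, a potassium channel subunit, fell by 0.45.

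Known target genes of the glucocorticoid receptor did not move as 1 group. Of 27 measured, 9 rose and 3 fell between 24 h and 48 h (median 0.19), against 19.1% and 20.6% of all genes. In control 15 were higher and 3 lower (median 0.41). The test against control was positive in 8 and negative in 9. Tgm2, a transglutaminase, was at 4.94, 4.69, 5.09 and 4.56 at 24 h and 8.64, 7.73, 7.92 and 8.03 at 48 h, a rise by 3.26 (standard error 0.27, adjusted p = 6.28e-07 from limma). It changed by 1.37 in control and by 2.99 in S49 (Neo) cells. Zbtb16, a zinc finger factor, rose by 1.38 and by 1.65 in S49 (Neo) cells, while the controls changed by 0.01 (adjusted p = 0.944 from limma). Sesn1, a stress-induced inhibitor of mTORC1, Dgkz, a diacylglycerol kinase, and the clock gene Per2 rose by 1.09, 0.69 and 0.68. Fkbp5, a cochaperone that restrains the receptor, changed by -0.30 in dex and by -0.29 in control, and Sgk1, a kinase, fell by 0.88 in dex and rose by 0.75 in control. The receptor gene Nr3c1 was at 14.59, 14.59, 13.52 and 14.60 at 24 h and 14.61, 14.62, 14.70 and 14.69 at 48 h. Its difference of 0.33 (adjusted p = 0.160 from limma) was 0.06 without replicate 3 (adjusted p = 0.374), and that library alone lay apart.

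In the Bcl-2 family, 3 of 5 BH3-only genes measured rose and 1 fell. Bbc3, the gene of Puma, was at 9.54, 9.38, 9.89 and 9.78 at 24 h and 10.93, 11.03, 11.04 and 10.91 at 48 h (1.33, standard error 0.14, adjusted p = 6.63e-06 from limma). Bmf was at 12.23, 12.28, 12.40 and 12.74 and 13.71, 13.61, 13.67 and 13.82 (1.29, standard error 0.26, adjusted p = 0.00113 from limma), and Bcl2l11, the gene of Bim, lay at 13.16 to 13.50 at 24 h and 13.65 to 13.77 at 48 h and rose by 0.38. Bid fell by 0.44, and Bad differed by -0.11 (adjusted p = 0.516 from limma) and by 0.07 without replicate 3. Controls changed in the same direction in the 4 genes that passed, by 1.02, 1.71, 0.28 and -0.67 in the order above, and with all libraries the test of the difference passed for none (0) of the 5, with differences of 0.31 (standard error 0.20) for Bbc3, -0.42 (0.37) for Bmf and 0.09 (0.11) for Bcl2l11. Before adjustment, none (0) of the 5 had a p under 0.05 in that test with all libraries. Without replicate 3 Bid passed, its change lying above that in control by 0.32 (adjusted p = 0.0419 from limma). S49 (Neo) cells had changes of 0.87 for Bbc3 and 0.75 for Bmf. The rise of Bbc3 was larger in S49 (Bcl-2) cells by 0.46 (adjusted p = 0.0605 from limma) and by 0.54 without replicate 3 (adjusted p = 0.0138).

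Of the anti-apoptotic members, Bcl2 rose by 0.26 (standard error 0.07, adjusted p = 0.0115 from limma) and by 0.21 in control. It did not pass with each library centred on its median (adjusted p = 0.0777) or with the GC trend of replicate 3 removed (adjusted p = 0.188). Reads of the introduced gene are not separated from the cell's own in these values. Mcl1 was at 14.11, 14.00, 13.17 and 14.03 at 24 h and 13.98, 13.97, 14.00 and 14.07 at 48 h, level but for the skewed library, with a difference of 0.17 with it and -0.05 (standard error 0.04) without it. In control Mcl1 changed by -0.25, which did not pass with all libraries. Its change in dex lay above that in control by 0.42, which did not pass, and by 0.20 without the skewed library, which passed. Bcl2l1, the gene of Bcl-xL, differed by -0.02 and Bcl2l2 by -0.11, and neither passed. In control Bcl2l1 rose by 0.44, and the change in dex minus that in control was -0.45 (adjusted p = 0.0333 from limma), or -0.36 without replicate 3 (adjusted p = 0.0170). Of the pore-forming genes, Bak1 fell by 0.45, with a difference from control of -0.57 (adjusted p = 0.00245 from limma), while Bax differed by 0.25 (adjusted p = 0.0595 from limma) and by 0.38 without replicate 3 (adjusted p = 2.97e-05). In control Bax fell by 0.30, and the difference between dex and control was 0.55 (adjusted p = 0.0105 from limma).

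**Figure D5:**
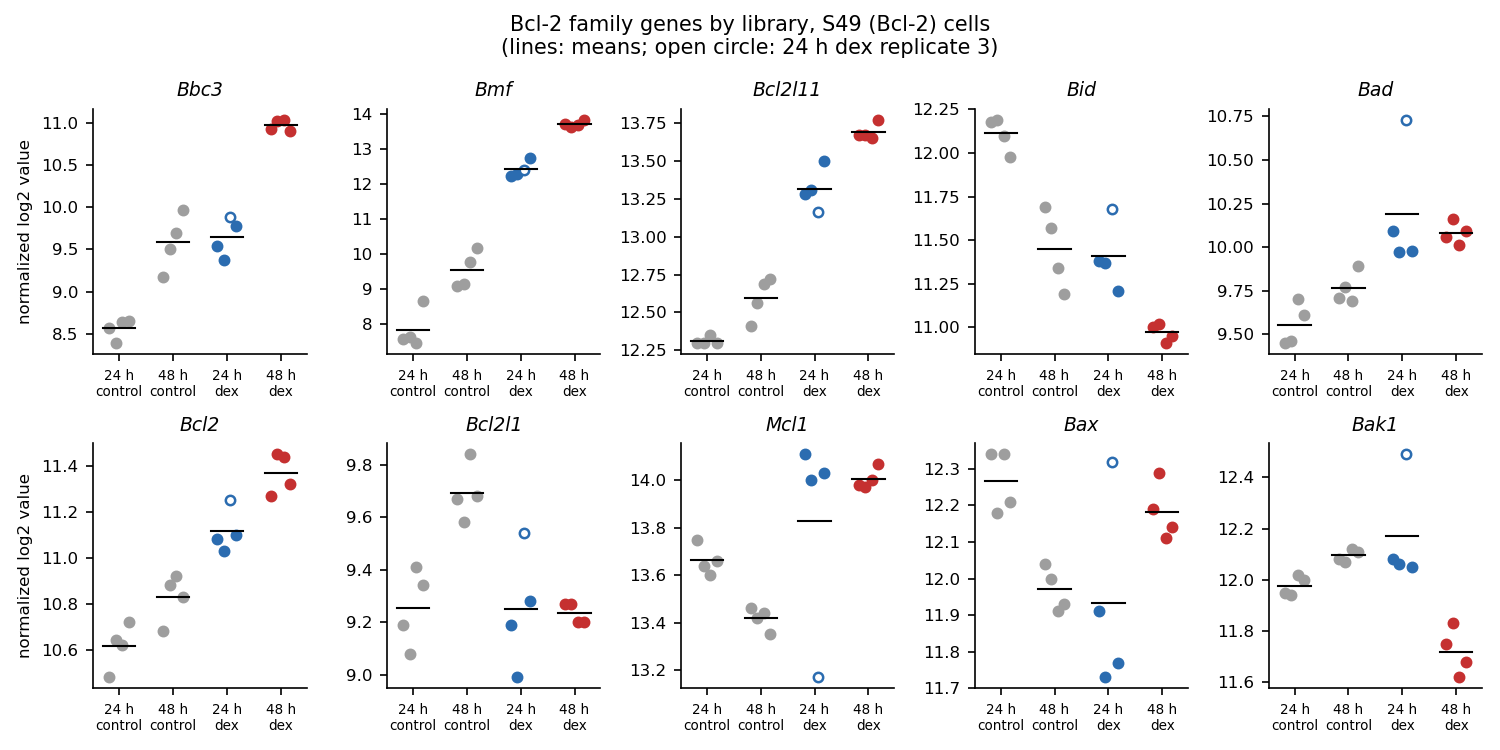
Normalized log2 value (y axis) of 10 Bcl-2 family genes in each S49 (Bcl-2) library, by time and treatment (x axis); lines are group means and the open circle is 24 h dex replicate 3. Bbc3, Bmf and Bcl2l11 are highest at 48 h of dex and are also higher at 48 h than at 24 h in control, and the open circle lies apart for Bad, Mcl1 and Bak1.

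Of 17 genes of caspases and the apoptosome 5 fell and 1 rose, against 20.6% and 19.1% of all genes, and 8 were lower and 3 higher without replicate 3. Casp8, the initiator of the death receptor pathway, fell by 0.41 in dex and rose by 0.30 in control, and Cycs, cytochrome c, changed by -0.52 in dex and by -0.46 in control. Targets of p53 rose in 12 of 22 cases and fell in 2 (median 0.41), and in control 10 were higher and 4 lower (median 0.31). The test of the difference was positive in 5 of the 22 and negative in 3, against 11.1% and 16.3% of all genes. Without replicate 3 these counts were 8 and 5. The largest positive difference of the list was that of Zmat3. Zmat3, an RNA-binding protein, was at 12.57, 12.53, 12.22 and 12.70 at 24 h and 13.35, 13.35, 13.21 and 13.36 at 48 h (0.81, standard error 0.08, adjusted p = 3.28e-06 from limma), and its change exceeded that in control by 1.01 (adjusted p = 2.69e-05). Ccng1, cyclin G1, rose by 1.0, and by 0.59 without replicate 3. Trp53 itself fell by 0.30, and Cdkn1a, Bbc3 and Sesn1 are in this list as well as in others.

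T cell identity genes went both ways, 9 rising and 12 falling of 44 (median -0.08), not far from the shares of all genes, while 9 were higher and 15 lower in control. Rag1, the recombinase of antigen receptor genes, was at 12.87, 12.73, 12.20 and 12.64 at 24 h and 11.57, 11.41, 11.14 and 11.34 at 48 h (-1.24, standard error 0.15, adjusted p = 1.90e-05 from limma) and changed by -0.91 in control. Tcf7 and Lef1, the factors of early T cells, fell (changes of -0.87 and -0.71), and the surface genes Cd3d and Thy1 fell (changes of -0.74 and -0.50). Notch3, Sox4 and Cd247, the zeta chain of the T-cell receptor, rose by 0.47, 0.43 and 0.44. The summed T cell markers given above were lower at 48 h, and Cd3d and Thy1 are members of that sum.

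Several groups of signaling genes were mostly higher at 48 h in control and mixed in dex. Of 31 cytokine receptor and STAT genes 6 rose and 4 fell in dex, against 19.1% and 20.6% of all genes, while 20 were higher and 2 lower in control. The change in dex minus that in control was negative in 16 and positive in 2. Il10ra, a receptor chain for interleukin 10, was at 11.09, 11.07, 11.60 and 11.04 at 24 h and 10.16, 10.38, 9.89 and 10.30 at 48 h, a change of -1.02, while it rose by 1.11 in control (difference -2.13, adjusted p = 4.64e-05 from limma). Pim1, a kinase that STAT factors induce, fell by 0.67, and Il6ra and Il21r rose by 1.16 and 0.51 in dex and fell in control. Interferon-stimulated genes rose in 16 and fell in 4 of 43 cases (median 0.22), against 19.1% and 20.6% of all genes. In control 29 were higher and 1 lower (median 0.53). The change in dex minus that in control was positive in 4 and negative in 19 (median -0.36), against 11.1% and 16.3% of all genes. Ifit1 was at 8.0, 8.27, 7.11 and 8.16 at 24 h and 9.55, 9.59, 9.56 and 9.21 at 48 h (1.59, standard error 0.23), and Oasl1 and Isg15 rose by 0.70 and 0.93, while Gbp3 fell by 0.49. The Ifit and Gbp families have close copies that may share reads. NF-kB and early response genes rose in 6 and fell in 2 of 27 cases, against 19.1% and 20.6% of all genes. In control 21 of them were higher and 3 lower. In dex Nfkbie fell by 1.06 while Relb rose by 0.76.

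Of 19 genes of antigen presentation on MHC class I, 6 rose and 4 fell, against 19.1% and 20.6% of all genes. B2m, the light chain, was at 15.10 to 16.23 at 24 h and 16.69 to 16.85 at 48 h, a rise of 0.92 (0.67 without replicate 3), and the controls changed by 0.00. Class I heavy chain genes such as H2-T23 (1.10) have near-identical relatives and are uncertain. Lysosomal genes and targets of TFEB rose in 25 and fell in 2 of 46 cases (median 0.28), against 19.1% and 20.6% of all genes. In control 19 were higher and 1 lower (median 0.21). The test against control was positive in 10 and negative in 5, against 11.1% and 16.3% of all genes. By the test between lines 11 were positive and 0 negative, against 6.48% and 11.8% of all genes. Psap, the precursor of saposins, was at 16.81, 16.83, 17.11 and 16.92 at 24 h and 17.54, 17.54, 17.48 and 17.54 at 48 h (0.61, standard error 0.07, adjusted p = 1.27e-05 from limma). Fuca1, an enzyme that removes fucose, Tpp1, a peptidase, and Npc2, a cholesterol carrier, rose by 0.71, 0.65 and 0.59, and Ctsl, cathepsin L, by 0.54 with -0.02 in control. Autophagy genes rose in 13 of 35 cases and fell in 0, against 19.1% and 20.6% of all genes, and 13 were higher and 4 lower in control. Without replicate 3, 3 were lower, Atg3, Atg4a and Atg5. Among those that rose were Calcoco1, a receptor of selective autophagy (0.64, and 0.73 in control), and Map1lc3b, which coats the autophagosome (0.36). Of 17 clock genes 7 rose and 2 fell, against the same shares of all genes, and in control 9 were higher and 2 lower.

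Among genes with a mean of at least 6.66 whose change differed between dex and control with and without replicate 3, the 5 largest positive differences were in Angptl7, Reps2, Grasp, Sohlh1 and Cbfa2t3, a transcriptional corepressor. Cbfa2t3 was at 5.81, 6.0, 5.89 and 6.06 at 24 h and 7.50, 7.25, 7.54 and 7.71 at 48 h of dex, where it rose, and the controls fell from a mean of 9.80 to one of 8.18, a difference of 3.18 (standard error 0.20, adjusted p = 3.28e-07 from limma). The 5 largest negative differences in the same genes came mostly from rises in control. Aldoc, aldolase C, was at 7.27, 6.99, 7.65 and 8.83 at 24 h and 7.30, 7.83, 7.36 and 8.24 at 48 h of dex, where the groups overlap, and rose from a mean of 8.21 to 10.98 in control (-2.77, adjusted p = 0.00407 from limma). P2rx3, an ATP-gated channel, was at 8.10 to 8.30 and 8.02 to 8.15 in dex and had means of 7.37 and 9.71 in control (-2.49). Gipr, the receptor of an incretin hormone, Fos, an early response factor, and Gbp2, an interferon-induced GTPase, differed by -2.93, -2.67 and -2.73. Of these Gbp2 also fell in dex (-0.66).

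Between lines, among genes that passed with and without replicate 3 and under the same limit on the mean, the largest positive differences after Angptl7 were in Ccr9, Grasp, Tle2 and Mum1l1. Ccr9, a chemokine receptor of thymocytes, was at 5.04 to 6.38 at 24 h and 5.75 to 6.46 at 48 h in S49 (Bcl-2) cells and went from a mean of 7.45 to one of 6.16 in S49 (Neo) cells (difference 1.52, adjusted p = 0.000552 from limma). Tle2, a Groucho corepressor, rose by 1.19 in S49 (Bcl-2) and changed by -0.31 in S49 (Neo) cells, and Mum1l1, lowest in the skewed library, differed between lines by 1.45 with and 1.07 without it. Among the same genes the largest negative differences were in Ppp1r32, Ptprb, Ctla4, Plaur and Lims2. Ppp1r32, a phosphatase regulatory subunit, was at 10.07 to 10.56 and 9.86 to 10.26 in S49 (Bcl-2) cells and rose from a mean of 10.41 to one of 12.02 in S49 (Neo) cells (-1.73, adjusted p = 4.57e-07 from limma). Ptprb, a receptor phosphatase, fell by 1.16, Plaur, the urokinase receptor, fell by 1.15, Ctla4, an inhibitory receptor of T cells, fell by 1.19, and Lims2, an adaptor at integrins, fell by 1.07. In S49 (Neo) cells the means of these 4 genes were higher at 48 h, by 0.48, 0.41, 0.45 and 0.29, of which Plaur (adjusted p = 0.0580) and Ctla4 (adjusted p = 0.378 from limma) did not pass. Ctla4 varied among replicates (8.98, 8.35, 8.48 and 9.38 at 24 h and 7.10, 8.22, 6.71 and 8.40 at 48 h), and the comparison of dex-treated libraries on their own did not call it (adjusted p = 0.0648 from limma).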

How the data were processed

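Per the labels and the methods of the study, mRNA libraries were sequenced as paired 75-base reads, which the authors aligned to mm10 with STAR and counted per gene with featureCounts. The deposited log2 values were normalized by the authors with DESeq2, and the transform behind them is not given in the sources used here. The table held 24538 genes and 32 libraries, with no counts, so the depth and counting error of a value are unknown, and 26 gene symbols had been turned into dates. The values were used without further scaling. In limma 3.58.1 (R 4.3.3), each group was given its own mean, over the 16 libraries of the S49 (Bcl-2) line or, for the comparison of lines, over all 32, and variances were moderated with a trend on the mean. The test was run on genes whose mean reached 3.46, which is log2 of 10 + 1 reads, and p-values were adjusted by Benjamini-Hochberg over them. The method was tested on simulated data with independent noise per gene, the same spread in all libraries and no GC-skewed library. That test therefore does not cover the skew seen here. Genes named are the 12 largest rises and 12 largest falls that passed with all libraries and without 24 h dex replicate 3, had a mean of at least 6.66 and did not overlap between times. Added to them are, per direction, the 5 largest differences from control and from S49 (Neo) cells, taken from genes that passed those tests both times and had that mean. Nr3c1 and the Bcl-2 family were also named, and up to 6 members of each of 42 gene lists by p without that replicate, with members that went the other way. Gene models without a name were passed over, and promoters to print were chosen after the values were seen. The members and lists were chosen with earlier results of these data known. GC content and positions came from GENCODE M21. Alternatives were a stricter filter and none, a replicate block, library weights, 2 rescalings, removal of the GC trend, 1 prior spread, each library left out and the 8 dex-treated libraries alone.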

Additional observations from a re-analysis of the deposited data

Results flagged for a closer look

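Among 122 groups of 4 values, 14 held a library that lay far from the other 3, by a gap over Dixon's critical value for 4 samples, and chance alone gives such a gap in about 1 in 20 groups. Of the 14, 9 were 24 h dex replicate 3, the library that followed GC content. It was lowest for Reps2 (7.16), Smarca1 (5.96), Mum1l1 (6.67), Mcl1 (13.17) and Nr3c1 (13.52). It was highest for Bad (10.73), Bak1 (12.49), Ppp1r32 (10.56) and the mean of the cytosolic ribosomal protein genes (15.741). The other 5 were Dsp in 24 h dex replicate 4 (10.10, lowest), the mean of the p53 targets in 48 h dex replicate 3 (11.049, lowest), and Bcl2l11 (13.77), Cym (6.73) and Sema7a (5.99), all highest in 48 h dex replicate 4.

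The 10 genes below had the largest differences between the change in dex and the change in control. They were picked among genes with a mean of at least 6.66 that passed the test of the difference in limma both times. That they passed was therefore set by the choice. The change in dex was above that in control in Angptl7 (4.09), Cbfa2t3 (3.178), Reps2 (3.018), Grasp (2.627) and Sohlh1 (2.022), and below it in Gipr (-2.928), Aldoc (-2.766), Gbp2 (-2.728), Fos (-2.672) and P2rx3 (-2.486). For the change in dex between lines, genes were picked in the same way among those that passed that test. It was above that of S49 (Neo) cells in Angptl7 (2.367), Ccr9 (1.517), Grasp (1.506), Tle2 (1.502) and Mum1l1 (1.453), and below it in Ppp1r32 (-1.729), Ptprb (-1.646), Ctla4 (-1.638), Plaur (-1.558) and Lims2 (-1.368).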

How the results depend on the processing

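Omitting 1 library at a time gave 1769 to 3259 genes higher and 2056 to 3610 lower at 48 h than at 24 h of dex, 1915 to 3905 and 1538 to 3669 in the controls, 967 to 2657 and 1565 to 3143 for dex minus control, and 587 to 1308 and 1170 to 2284 for S49 (Bcl-2) minus S49 (Neo) cells. Each highest count came without 24 h dex replicate 3. Library quality weights, which gave that library a weight of 0.015, found 3627 and 3893 genes in dex, 3858 and 3786 in control, 3022 and 3392 for dex minus control and 1746 and 2782 between lines. With its GC trend removed, 2030 genes were higher for dex minus control and 1206 between lines. The fit of the 8 dex-treated libraries, which has fewer samples, found 1518 genes higher. Every other count of genes stayed within 1.5 times its value under the alternatives run.

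Whether the replicate numbers pair the dex-treated libraries was not settled. Same-numbered libraries at 24 h and 48 h had correlations of -0.248 to 0.362, and 1 of 4 correlated best with its own number. The deviations at 24 h were from a mean that includes the skewed library, and they followed GC content (rho of -0.654, -0.753, 0.80 and -0.641). A pairing could thus hardly show, and the check was not repeated without that library. The libraries numbered 4 had correlations of 0.197 to 0.616 over all pairs of groups. The 24 h control and 24 h dex libraries did deviate together by number (0.197 to 0.225, 4 of 4 best with their own), which bears on the dex minus control counts. With the replicate block 2363 genes were higher and 2561 lower in dex, 2547 and 2139 in control, 1362 and 2029 for dex minus control, and 1005 and 1719 between lines.

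Of 1249 values of 50 named genes under the alternatives, 1233 kept their direction and side of the threshold, 9 lost the call, 7 gained it and 0 reversed. Bcl2 lost its call with libraries centred on their medians (adjusted p = 0.0777 from limma) and with the GC trend removed (adjusted p = 0.188). Of 2100 counts over 42 gene lists, 203 moved by over 1.5 times. Centring or quantile normalization put the median change of all genes at 0.001, against 0.037.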
